A study of Mus musculus with 6 samples.

Results

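The 9 genes described here, Ttn, Neb, Actn2, Actn3, Xirp2, Ldb3, Myoz1, Mybpc2 and Myom1, encode the giant filament proteins of the sarcomere and parts of its Z-disc, A-band and M-band. They were chosen by name, and all 9 were found among the 24062 genes with deposited counts. Counts were from translating ribosome affinity purification (TRAP) of gastrocnemius and soleus muscle, in which ribosomes that carry a GFP-tagged L10a protein are retrieved with an anti-GFP antibody together with their RNA. The tag was targeted to the Rosa26 locus behind a floxed stop (strain B6.129S4-Gt(ROSA)26Sorfm1 in the labels, with the construct named CAG-EGFP/Rpl10a; birA/Wtp/J) and was turned on by a VECad-Cre driver, so that endothelial cells should carry it. All animals were described as female mice, ovariectomized at 6 weeks of age in the study's methods and 4 weeks old at treatment in the labels. One group received placebo pellets (vehicle) and the other 17β-estradiol (E2) pellets for 4 weeks. There were 3 libraries per group, each labelled with 2 mouse numbers. The study's methods count 6 replicates per group, and the sources used here do not say whether a library pooled its mice. The library was taken as the replicate here, and p-values measure the spread between libraries.

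The sarcomere is the contractile unit of the muscle fiber. Its thin actin filaments are anchored at the Z-disc and its thick myosin filaments are held in register at the M-band. Titin spans from Z-disc to M-band and nebulin runs along the thin filament, whereas alpha-actinins cross-link actin at the Z-disc, where LIM-domain proteins and myozenins dock. Myosin-binding protein C sits on the thick filament within the A-band, and myomesin links thick filaments at the M-band. Striated muscle is the main site of expression of these genes.

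The 6 libraries differed in depth, from 84823 counts in vehicle replicate 3 to 451034 in vehicle replicate 2. All of these totals were low, far below the sequenced reads per library that the paper's methods state. Of the counts, 28.5% to 42.9% fell on the ribosomal RNA gene Rn45s. Levels are given as CPM, that is, counts scaled so that every library sums to 1000000. The vehicle group was split. On log2(CPM + 1) over the 1682 genes tested, vehicle replicates 1 and 2 correlated with each other at r = 0.949 and with the other 4 libraries at r = 0.569 to 0.665. Vehicle replicate 3 was closer to the E2 libraries (r = 0.768, 0.763 and 0.676) than to its own group (r = 0.569 and 0.575). The 4 Y-linked genes examined had 40 and 63 counts in vehicle replicates 1 and 2 and none in the other libraries, against the description of the mice as female. Since only vehicle libraries held these counts, differences between E2 and vehicle cannot be told apart from differences that go with them. Of 20 endothelial markers, 5 had enough counts to be tested. The summed level of all 20 was 4940, 6416 and 1497 CPM in the vehicle libraries and 1001, 1728 and 2433 CPM in the E2 libraries. Of their 5406 counts, 4203 were on the fatty acid transporter gene Cd36, which muscle fibers also express. Without Cd36 the sums were 1129, 1219 and 389 CPM with vehicle and 214, 494 and 841 CPM with E2, highest in vehicle replicates 1 and 2. The endothelial cadherin gene Cdh5 had 317 counts and the VEGF receptor gene Kdr 233, whereas Cldn5, Gpihbp1 and Emcn had 5 or fewer each. A set of 20 muscle fiber markers outside the 9 genes summed to between 58192 and 97342 CPM with vehicle and to between 59848 and 81562 CPM with E2. In all 6 libraries the summed fiber markers thus lay above the summed endothelial markers. Without a library of whole-muscle RNA, such sums do not measure enrichment by the pulldown. By Q-RT-PCR against whole tissue, the paper reported Robo, PECAM-1 and VECad as highly enriched in TRAP RNA. It reported MyoG, MyoD1 and α-SMA as enriched in the whole tissue instead.

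The 9 genes together made up 3.61%, 4.10% and 2.92% of all counts in vehicle replicates 1, 2 and 3, and 2.46%, 2.58% and 1.97% in E2 replicates 1, 2 and 3. The shares did not overlap between the groups, and vehicle replicate 3 lay between vehicle replicate 1 and the E2 libraries. Without Rn45s in the totals the shares were between 4.36% and 5.74% with vehicle and between 3.45% and 3.84% with E2. Bulk libraries cannot tell fewer cells that express these genes from less of their RNA per cell. Other sources of the difference, among them the pulldown itself, were not tested. Ttn alone held between 51.4% and 67.6% of the counts on the 9 genes.

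The comparison asked which RNAs differed in level in the TRAP libraries between E2 and vehicle. No library of whole-muscle RNA was among them, so ribosome association cannot be told apart from RNA abundance. The quasi-likelihood test of edgeR called 0 of the 9 genes lower and 0 higher (adjusted p under 0.05), beside 2.97% and 2.5% of the 1682 genes tested and 5.47% in either direction. DESeq2 also called 0 of them, beside 2.91% of all genes called lower and 2.79% called higher. The likelihood ratio test called 1, Myoz1, lower, beside 9.04% of all genes called lower and 6.24% called higher by that test. All 9 genes passed the filter on low counts. The log2 fold change was below 0 for 6 genes and above 0 for 3, with a median of -0.21, beside 0.01 over all genes tested. At an unadjusted p of 0.05 or less, Myoz1 and Mybpc2 were lower and none was higher, beside 15.1% and 10.5% of all genes. The largest difference was that of Myoz1, at -1.56 on the log2 scale (SE, the standard error, 0.51; edgeR adjusted p = 0.0764).

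**Figure D1:**
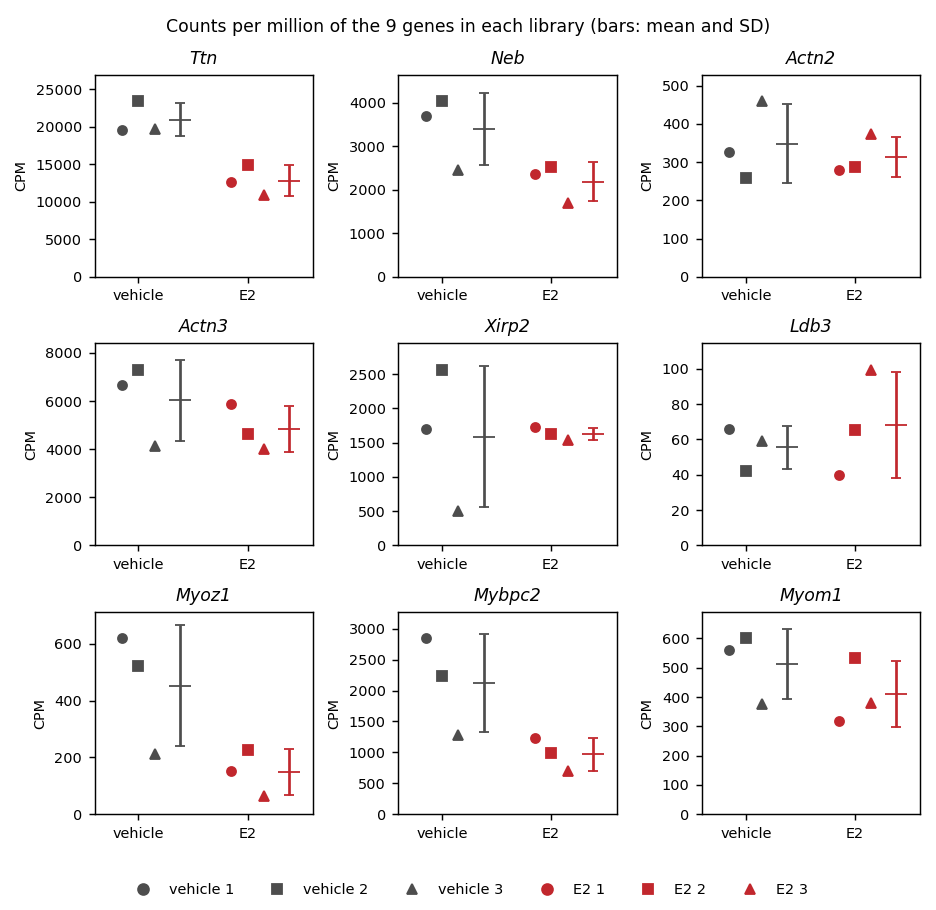
Level of each gene in CPM (vertical axes from 0) in the 3 vehicle (grey) and 3 E2 (red) libraries, with the replicate number as the symbol and bars for the mean and SD. For Ttn the vehicle libraries lie between 19623 and 23475 CPM and the E2 libraries between 10890.0 and 14944 CPM, whereas the groups overlap for most other genes.

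The calls depended on which vehicle libraries were included. Without vehicle replicate 3, Myoz1 (log2 fold change -1.75, adjusted p = 4.21e-04) and Mybpc2 (-1.16, adjusted p = 0.00562) were called lower by edgeR and none was called higher. These 2 of 9 genes stood beside 24.3% of all genes called lower and 22.1% called higher in that fit, close to the share of the 9 genes. Without vehicle replicate 3, the E2 libraries lay below both remaining vehicle libraries for 6 of the 9 genes and above them for 0, beside 39.6% and 21.1% of all genes. With vehicle replicates 1 and 2 left out, which hold the Y-linked counts, 0 of the 9 genes were called, beside 0.0524% of all genes called lower and 0.315% called higher, so that few calls were made on any genes in that fit. There the log2 fold changes of Myoz1 and Mybpc2 were -0.47 (adjusted p = 0.810) and -0.31 (adjusted p = 0.861, edgeR's quasi-likelihood test). The single vehicle library was assumed to vary like the E2 libraries.

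**Figure D2:**
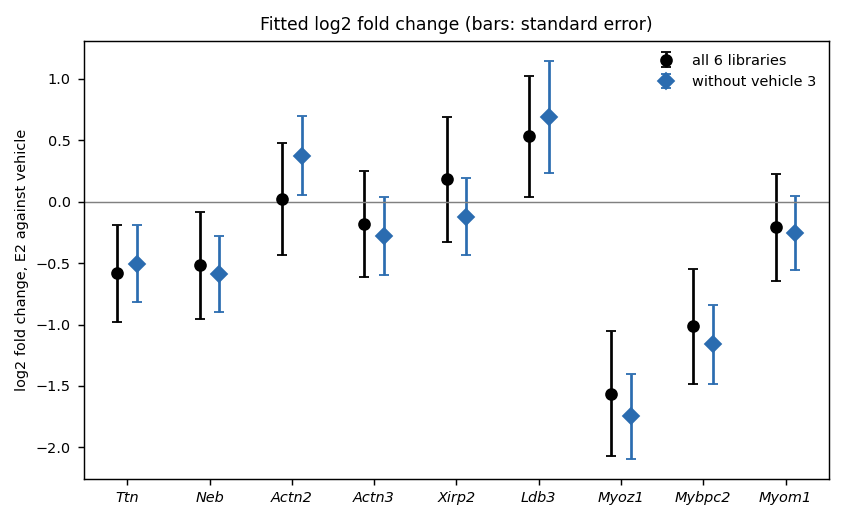
Fitted log2 fold change of E2 against vehicle (vertical axis) for each gene, with bars for the standard error, in all 6 libraries (black circles) and without vehicle replicate 3 (blue diamonds). Myoz1 and Mybpc2 lie lowest in both fits, and the sign of Xirp2 differs between them.

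Ttn is a chromosome 2 gene (mm10 genome build, used for all positions here, 76703980 to 76982547, minus strand), and its exons cover 116825 bases in the GENCODE annotation (mouse release M21). Titin acts as a molecular spring and as a ruler of the thick filament. Ttn had 5668, 10588 and 1672 counts in vehicle replicates 1, 2 and 3, and 1594, 2967 and 2189 in E2 replicates 1, 2 and 3. This corresponds to 19623, 23475 and 19712 CPM with vehicle and to 12658, 14944 and 10890.0 CPM with E2. No E2 library reached the lowest vehicle library, and vehicle replicate 3 was close to vehicle replicate 1. The mean was 20937 ± 2199 CPM (SD, n = 3) for vehicle, against 12831 ± 2033 CPM (SD, n = 3) for E2 (two-sided exact permutation p = 0.1 on log2(CPM + 1), the lowest that 3 libraries against 3 can give). The groups also stayed apart on TMM-scaled CPM (trimmed mean of M values, a scaling to the bulk of the genes), with 22030.0, 24029 and 22097 against 15011, 15562 and 14896. Nevertheless, Ttn was not called by edgeR, which fitted -0.58 on the log2 scale (SE 0.39, adjusted p = 0.357). On CPM, 2 of the 9 genes, Ttn and Mybpc2, had E2 libraries below vehicle without overlap and 0 had them above, beside 12.8% and 8.68% of the genes tested.

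The promoters of Ttn, Xirp2 and Mybpc2 are shown because these genes had different patterns across the libraries. Ttn kept its level in vehicle replicate 3, Xirp2 was lowest there, and Mybpc2 had the largest difference among the genes with a promoter in the RefSeq table used here. Each sequence runs from 250 bases before to 50 after the annotated start (RefSeq, GRCm38.p6), in the direction of the gene. Capitals mark matches to the MEF2 consensus or to the estrogen response element half-site AGGTCA on either strand. MEF2 factors are transcription factors of muscle, and the half-site is the core that estrogen receptors recognize.
Ttn, chr2:76982498-76982797, minus strand: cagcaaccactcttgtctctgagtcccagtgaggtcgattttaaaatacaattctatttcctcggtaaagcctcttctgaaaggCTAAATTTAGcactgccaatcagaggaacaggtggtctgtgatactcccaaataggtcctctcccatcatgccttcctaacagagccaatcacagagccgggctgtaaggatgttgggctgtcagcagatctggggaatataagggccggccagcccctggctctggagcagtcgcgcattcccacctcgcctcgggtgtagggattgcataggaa
Xirp2, chr2:67445752-67446051, plus strand: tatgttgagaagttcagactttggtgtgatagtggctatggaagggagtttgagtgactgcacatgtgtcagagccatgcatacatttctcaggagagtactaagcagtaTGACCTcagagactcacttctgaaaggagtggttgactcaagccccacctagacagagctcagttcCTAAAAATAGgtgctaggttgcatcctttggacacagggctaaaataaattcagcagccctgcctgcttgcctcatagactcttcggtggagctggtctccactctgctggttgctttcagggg
Mybpc2, chr7:44524620-44524919, minus strand: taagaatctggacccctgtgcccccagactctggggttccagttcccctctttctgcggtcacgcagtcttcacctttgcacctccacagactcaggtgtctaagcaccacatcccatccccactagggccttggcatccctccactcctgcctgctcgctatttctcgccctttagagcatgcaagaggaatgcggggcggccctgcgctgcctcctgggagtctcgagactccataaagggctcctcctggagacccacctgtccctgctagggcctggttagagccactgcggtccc

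The windows of 6 of the 9 genes were in the table, with a pair of windows for Ldb3, and those of Neb, Actn3 and Myoz1 were not used here. A MEF2 match was present in Ttn, starting 166 bases before the start, and in Xirp2, 74 bases before it. Over all 32851 promoter windows of the table, 3.19% held such a match. The half-site AGGTCA was present in Xirp2 and Actn2, beside 16.3% of all windows, and the full element, GGTCA and TGACC with 3 bases between, was in none of the windows of these genes, beside 0.07% of all. An E-box, CANNTG, the letters that myogenic factors bind, was in the windows of Ttn, Xirp2, Mybpc2, Actn2 and Myom1, beside 72.3% of all. The letters TATAAA were in none of these windows, beside 13.6% of all. Since each window is short, the absence of a match says only that these letters are not in it.

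Neb encodes nebulin, which spans the thin filament and stabilizes it. It lies on the minus strand of chromosome 2, from 52136647 to 52378474. Neb was at 3698, 4040 and 2452 CPM in vehicle replicates 1, 2 and 3 and at 2350 (2350.5), 2523 and 1686 CPM in E2 replicates 1, 2 and 3. Vehicle replicate 3 lay among the E2 libraries, so that the groups overlapped. edgeR put the E2 libraries at -0.52 (log2 scale, SE 0.44, adjusted p = 0.476) against vehicle. With respect to Ttn, there were 188, 172 and 124 Neb counts per 1000 Ttn counts with vehicle and 186, 169 and 155 with E2. The ratio of both giant genes thus overlapped between the groups.

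Among the Z-disc genes, the alpha-actinin pair differed in its pattern. Actn3, the fast-fiber alpha-actinin, lies on chromosome 19 from 4861216 to 4877909. It had 6647, 7305 and 4114 CPM with vehicle and 5884, 4624 and 3995 CPM with E2. Vehicle replicate 2 was highest and E2 replicate 3 lowest, next to vehicle replicate 3, and edgeR fitted -0.18 on the log2 scale (SE 0.43, adjusted p = 0.821). Actn2, the alpha-actinin of all skeletal fibers and of the heart, lies on chromosome 13 from 12269426 to 12340760. It had 325, 257 and 460 (459.8) CPM with vehicle and 278, 287 and 373 CPM with E2. Its highest library was vehicle replicate 3, where Actn3 was low. For Actn2 edgeR fitted 0.02 (log2 scale, SE 0.45, adjusted p = 0.984), and its sign changed with the scaling, being -0.15 by library totals only. The number of Actn3 counts per Actn2 count was 20.4, 28.4 and 8.95 with vehicle and 21.2, 16.1 and 10.7 with E2. Only 2 of 2838 stretches of 50 bases of the longest Actn3 transcript were shared with Actn2, so few reads could be split between the pair.

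Xirp2 encodes an actin-binding repeat protein of the Z-disc region and of attachment sites, and lies on the plus strand of chromosome 2 from 67446002 to 67526614. Counts were 489, 1157 and 43 for vehicle replicates 1, 2 and 3, against 217, 322 and 309 for E2. The levels were 1693, 2565 and 507 CPM with vehicle and 1723, 1622 and 1537 CPM with E2. The E2 libraries lay within a narrow range (1627 ± 93.1 CPM, SD, n = 3), whereas vehicle replicates spread around them (1588 ± 1033 CPM, SD, n = 3). In vehicle replicate 3 the exact 95% Poisson interval reached from 367 to 683 CPM and lay below the intervals of all other libraries. Such intervals cover counting error only. Per 1000 Ttn counts, Xirp2 had 86.3, 109 and 25.7 counts with vehicle and 136, 109 and 141 with E2. edgeR put the E2 libraries at 0.18 (log2 scale, SE 0.51, adjusted p = 0.842) against vehicle. This value was -0.12 without vehicle replicate 3 and 1.79 (adjusted p = 0.153) when only this vehicle library was kept.

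Myoz1 encodes myozenin 1 (calsarcin-2), a calcineurin-binding Z-disc protein of fast fibers. The gene lies on the minus strand of chromosome 14 from 20649107 to 20656540. It had 179, 236 and 18 counts with vehicle and 19, 45 and 13 counts with E2, which corresponds to 620 (619.7), 523 and 212 CPM and to 151, 227 and 64.7 CPM. The highest E2 library, replicate 2, lay above vehicle replicate 3 on CPM and just below it on TMM-scaled CPM (236 against 238). The mean was 452 ± 213 CPM (SD, n = 3) for vehicle, against 147 ± 81.0 CPM (SD, n = 3) for E2, a ratio of 3.06. Its adjusted p was above 0.05 in edgeR's quasi-likelihood test and was 0.0252 in the likelihood ratio test and 0.0509 in DESeq2. With any library other than vehicle replicate 3 left out, the adjusted p was between 0.159 and 0.322. Per 1000 Ttn counts, Myoz1 had 31.6, 22.3 and 10.8 counts with vehicle and 11.9, 15.2 and 5.94 with E2, with vehicle replicate 3 below 2 of the E2 libraries.

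Ldb3, whose PDZ-LIM product (Cypher or ZASP) binds alpha-actinin, had the fewest counts of the 9 genes, 19, 19 and 5 with vehicle and 5, 13 and 20 with E2. It lies on chromosome 14 from 34526603 to 34588682. The levels were 65.8, 42.1 and 59.0 CPM with vehicle and 39.7, 65.5 and 99.5 CPM with E2, and the groups overlapped throughout. For Ldb3 edgeR fitted 0.53 on the log2 scale (SE 0.49, adjusted p = 0.522), and 0.12 to 0.84 with a library left out. The Poisson intervals of vehicle replicate 3 (19.1 to 138 CPM) and E2 replicate 1 (12.9 to 92.7 CPM) were wide.

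Mybpc2 encodes the fast-fiber myosin-binding protein C of the A-band. It lies on the minus strand of chromosome 7 from 44501699 to 44524656. It had 2846, 2237 and 1285 CPM with vehicle and 1231, 987 and 696 CPM with E2. The groups did not overlap, although vehicle replicate 3 and E2 replicate 1 were close. On TMM-scaled CPM these 2 libraries changed places (1441 against 1460 (1459.7)). The mean was 2123 ± 787 CPM (SD, n = 3) for vehicle, against 972 ± 268 CPM (SD, n = 3) for E2 (two-sided exact permutation p = 0.1 on log2(CPM + 1)). edgeR put the E2 libraries at -1.02 (log2 scale, SE 0.47, adjusted p = 0.176) against vehicle.

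Myom1 encodes myomesin 1, which bridges thick filaments at the M-band. It lies on the plus strand of chromosome 17 from 71002633 to 71126856. Its levels were 561, 601 and 377 CPM with vehicle and 318, 534 and 378 CPM with E2. The lowest library was E2 replicate 1 and the groups overlapped. edgeR put the E2 libraries at -0.21 (log2 scale, SE 0.44, adjusted p = 0.794) against vehicle. Its exons overlap Myl12a on the opposite strand by 207 bases, and the sources used here give no strand setting for featureCounts. Opposite-strand RNAs also overlap exons of Ttn, Neb, Xirp2 and Mybpc2, by 453 bases or less. There were 3.41 to 5.07 Mybpc2 counts per Myom1 count with vehicle and 1.84 to 3.88 with E2, and these ranges overlapped.

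To compare levels between genes, CPM were divided by exon length in kb. Actn3 was the highest in every library, with 1377 to 2518 CPM per kb (median 1811). Mybpc2 followed with a median of 348 and a range from 193 to 788, and it was above Ttn in each library. Ttn (median 148), Xirp2 (138), Myoz1 (116), Neb (93.6) and Actn2 (80.7) had ranges that overlapped with their neighbours. Myom1 (43.6) overlapped with Xirp2 and Myoz1 at their lowest libraries, and Ldb3 was the lowest, with 6.504 to 16.3 CPM per kb. Thus Ttn, which held most of the counts of these genes, was not the most abundant per length. Within Ttn and Neb, 0.710% and 4.36% of the 50-base stretches of the longest transcript occur more than once in it, and how reads from such repeats were counted was not stated.

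**Figure D3:**
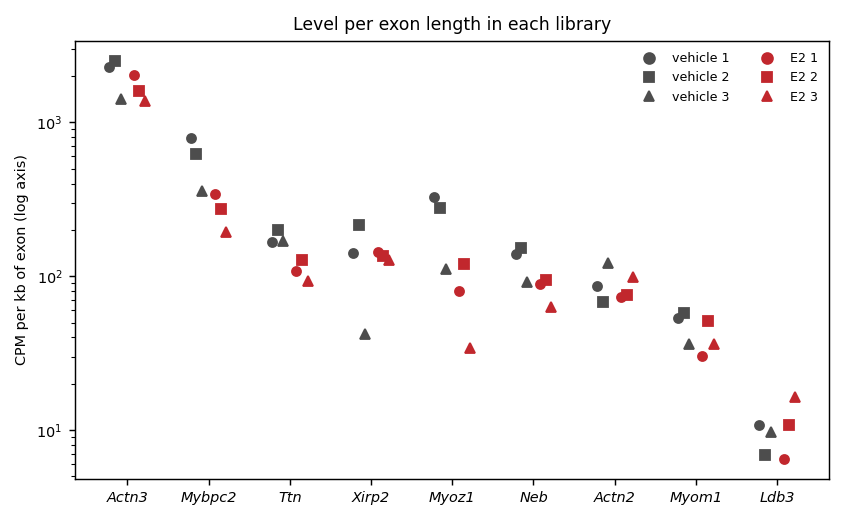
Level per exon length (CPM per kb of merged exons, log axis) of each gene in the 6 libraries, ordered by the median. Actn3 lies between 1377 and 2518 CPM per kb and Ldb3 between 6.504 and 16.3 CPM per kb.

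Ratios of counts within a library do not depend on its total or on its scaling. Of 12 ratios computed, 1 did not overlap between the groups, namely Neb to Actn3. There were 556, 553 and 596 Neb counts per 1000 Actn3 counts with vehicle and 399, 546 and 422 with E2 (two-sided exact permutation p = 0.1). The margin was narrow, since the exact 95% intervals of vehicle replicate 2 (522 to 586) and E2 replicate 2 (488 to 609) overlapped. For each of the other 8 genes, the ratio to Ttn overlapped between the groups.

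**Figure D4:**
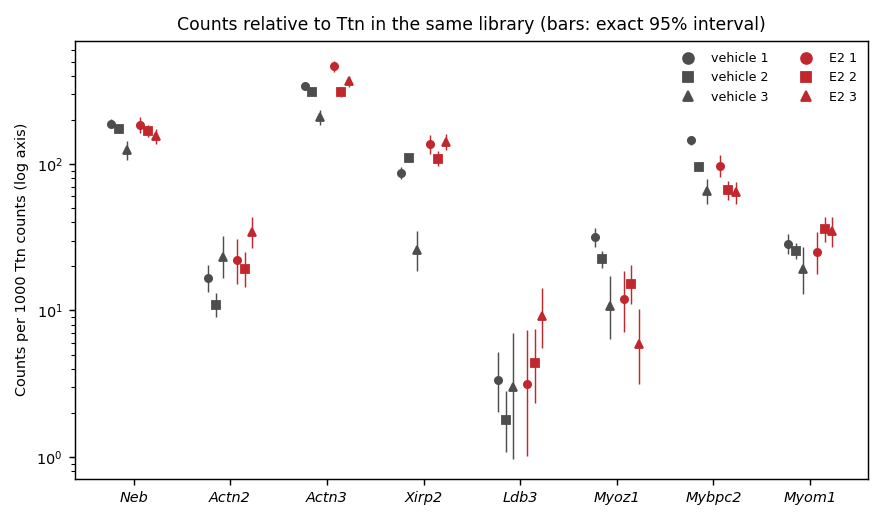
Counts of each gene per 1000 Ttn counts in the same library (log axis), with exact 95% intervals for counting error. Vehicle replicate 3 stands apart for Xirp2, with 25.7 counts per 1000 Ttn counts against 86.3 or more in every other library.

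Across the 6 libraries, log2(CPM + 1) of Neb followed that of Myoz1 (Pearson's r = 0.980, Spearman's rho = 0.943) and Mybpc2 (r = 0.945, rho = 0.771), and that of Ttn with r = 0.880 and rho = 0.829. Actn2 ran against Xirp2 (r = -0.896, rho = -0.943). These values describe 6 libraries of unequal depth from both treatment groups. The sources of the differences between the libraries were not tested. Outside the 9 genes, the levels most like their mean log2(CPM + 1) were those of Tob2 (r = 0.994, rho = 0.943), Cdk11b (0.990 and 0.943), Rps25 (0.990 and 1.00), Pgam2 (0.989 and 0.943), Svil (0.989 and 0.886) and Rpl32 (0.988 and 0.886). Pgam2, the muscle phosphoglycerate mutase, had 2198 counts in all and was called lower with E2 by edgeR (-3.24 on the log2 scale, SE 0.73, adjusted p = 0.0204). The other 5 were not called, with edgeR adjusted p between 0.0966 and 0.263.

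Other genes of the same structures were examined from a list of 39, of which 38 were found and 22 were tested. By edgeR, 0 were called lower and 0 higher at the adjusted p, with log2 fold changes below 0 for 14 and above 0 for 8 and a median of -0.22. At an unadjusted p of 0.05 or less, 5 were lower and 0 higher, beside the 15.1% and 10.5% of all genes. The lowest was Myoz3, the sister gene of Myoz1, with 51, 77 and 4 counts with vehicle and 7, 10 and 4 counts with E2 (-1.67 on the log2 scale, SE 0.52, edgeR adjusted p = 0.0630).

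Des, which encodes desmin, the intermediate filament around the Z-disc, had the most counts of the list. These were 1214, 1842 and 97 with vehicle and 226, 273 and 143 with E2 (edgeR: -1.17 on the log2 scale, SE 0.52, adjusted p = 0.163). Tcap, which caps titin at the Z-disc, was at -0.23 on that scale (SE 0.46, adjusted p = 0.788). In contrast, Myom2, the M-band relative of Myom1, had 206, 323 and 74 counts with vehicle and 133, 195 and 227 with E2, and its CPM were above those of vehicle in all E2 libraries (0.61, SE 0.44, adjusted p = 0.397). The highest values were those of Tmod1, which caps the pointed end of thin filaments (0.91, SE 0.44, adjusted p = 0.195), and of the small heat shock gene Cryab (0.85, SE 0.53, adjusted p = 0.320). Without vehicle replicate 3, edgeR called 6 of 24 such genes lower, Des and Myoz3 among them, and 3 higher (Cryab, Myom2 and Tmod1), beside the 24.3% and 22.1% of all genes in that fit.

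**Figure D5:**
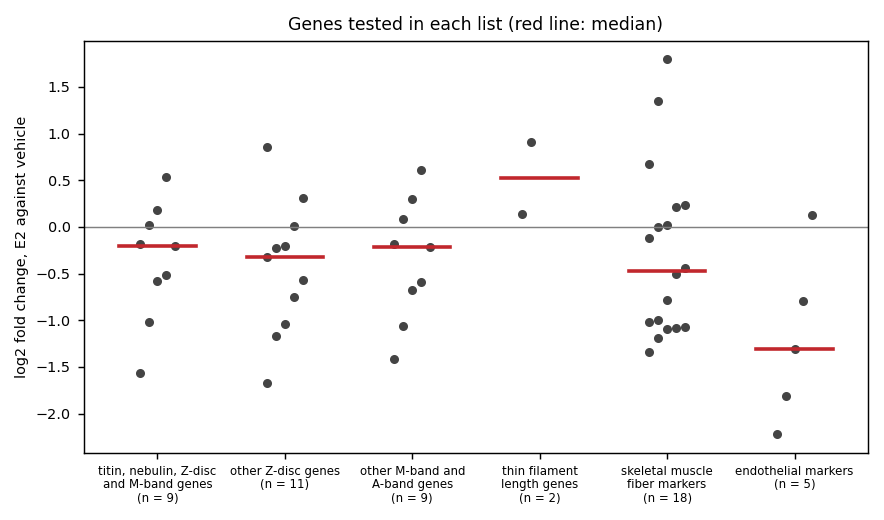
Log2 fold change of E2 against vehicle (vertical axis) for each gene tested in 6 lists, with red lines for the medians. The medians are -0.21 for the 9 genes, -0.32 for other Z-disc genes, -0.22 for other M-band and A-band genes, 0.53 for thin filament length genes, -0.47 for fiber markers and -1.31 for endothelial markers.

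Of the 20 muscle fiber markers, 18 were tested and 0 were called in either direction in edgeR's quasi-likelihood test, with a median log2 fold change of -0.47. At an unadjusted p of 0.05 or less, 5 were lower and 2 higher, beside 15.1% and 10.5% of all genes. On CPM, 8 of the 18 had E2 libraries below vehicle without overlap and 1 had them above, beside 12.8% and 8.68% of all genes. Their log2 fold changes lay between -1.34 and 1.80, and the 9 genes, with the exception of Myoz1 at -1.56, had values within this range. Of the 5 endothelial markers tested, 1 was called lower, beside 2.97% of all genes. This was the fatty acid binding protein gene Fabp4, just under the threshold (edgeR adjusted p = 0.0499). Its counts were 59, 103 and 7 in vehicle replicates 1, 2 and 3 and 2, 10 and 13 in E2 replicates 1, 2 and 3. The part of the fiber and endothelial content of the libraries in the values of the 9 genes was not tested.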

How the data were processed

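Ribosome-bound RNA of 3 vehicle and 3 E2 libraries was analysed. The authors deposited one table of unnormalized counts, with whole numbers for each gene symbol. Before that, reads had been demultiplexed (bcl2fastq 2.17), inspected (FastQC 0.11.2), aligned to the mouse genome mm10 (STAR 2.5.3a) and assigned to genes (featureCounts of Subread 1.6.0), with versions as in the submitters' processing notes. The paper names a ribosome profiling kit and the labels a stranded total RNA kit.

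Here the counts were tested in R (4.3.3) with edgeR (4.0.16): filterByExpr kept 1682 genes, TMM factors were applied, and quasi-likelihood p-values were adjusted by Benjamini-Hochberg over all genes tested. The SE was the fitted log2 difference divided by the square root of F. For a gene without counts, the limit of 3 counts equals 6.65 to 35.4 CPM, depending on the library. Alternatives were DESeq2 (1.42.0), limma-voom (limma 3.58.1), other filters, scalings and thresholds, the replicate number as a block, and libraries left out. Exon lengths were merged exons of GENCODE M21. The edgeR steps were tested on simulated data.

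The 9 genes and the gene lists were chosen with earlier results of these data known. Related genes were named if called, otherwise the 4 with the most counts and the 2 with the largest change in each direction, and the 6 genes most like the 9 were named by Pearson's r. A related gene that this rule names is not reported here. Ratios of counts were chosen after values were seen. Same-numbered libraries did not deviate together (r of deviations from the group means between -0.20 and 0.03) and were not treated as pairs.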

Additional observations from a re-analysis of the deposited data

How the results depend on the processing

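Of the 9 genes, 0 were called lower in most settings, 1 by the likelihood ratio test, 2 at an unadjusted p, and 0 to 2 with a library left out. Genes called lower numbered 50 as reported, 132 without a filter, 0 with 10 counts required in every library (where Ldb3 was not tested), 90 by library totals only, 152 by the likelihood ratio test, 9 by limma-voom, 1 without the vehicle libraries with Y-linked counts, 254 at an unadjusted p and 2 to 526 with a library left out. Genes called higher numbered 42 as reported, 31 without a filter, 11 with 10 counts in every library, 33 by library totals only, 105 by the likelihood ratio test, 63 by limma-voom, 6 without the vehicle libraries with Y-linked counts, 177 at an unadjusted p and 6 to 477 with a library left out. With the replicate number as a block, 1 gene was called lower and 7 higher, and 0 of the 9 genes. Of the other Z-disc, M-band and thin filament genes, 2 were called lower by library totals only, 2 by the likelihood ratio test, 1 by DESeq2, 1 by limma-voom, 5 at an unadjusted p and 0 to 6 with a library left out, and 0 to 3 were called higher with a library left out.

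The sign of the log2 fold change was not stable for 4 genes. Actn2 (0.02 as reported) was at -0.028 without a filter, -0.11 with 10 counts in every library, -0.15 by library totals only, -0.0035 without Rn45s in the totals, -0.0077 by limma-voom, -0.42 without the vehicle libraries with Y-linked counts and -0.27 to 0.38 with a library left out. Xirp2 (0.18) was at -0.13 with 10 counts in every library, -0.019 by library totals only and -0.12 to 0.54 with a library left out. Actn3 (-0.18) and Myom1 (-0.21) were at 0.34 and 0.22 without the vehicle libraries with Y-linked counts, and at -0.28 to 0.055 and -0.26 to 0.013 with a library left out. The difference of mean log2(CPM + 1) of Actn2 (-0.12) was 0.0069 on TMM-scaled CPM, 0.0014 without Rn45s and -0.32 to 0.10 with a library left out, that of Xirp2 (0.32) -0.36 to 0.81 and that of Ldb3 (0.22) -0.10 to 0.55. The median of all genes was -0.14 without a filter and -0.15 by library totals only, beside 0.01 as reported. The causes were not tested.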
